A study of Mus musculus with 9 samples.

Results

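The genes described here are the Sox trio, Sox9, Sox5 and Sox6, and 6 genes of the cartilage matrix, Col2a1, Col9a1, Col9a2, Col9a3, Col11a1 and Acan. They were taken by name as the core of the cartilage programme, by a rule that uses no measured value, although earlier results of these data were known, and make up 9 of the 32289 features counted. They were followed in single-cell RNA-seq libraries of mouse forelimb bud pairs, dissected at E10.75 when embryos had 37 to 39 somites, with 3 libraries each for wild-type (Wt), E1C8Δ/Δ and E1C5Δ/Δ embryos and 1 embryo per library. Both mutants are homozygous for the deletion of EC1, a cluster of enhancers of Grem1, whose product binds bone morphogenetic proteins (BMPs) and blocks them outside the cell. E1C8Δ/Δ embryos also lack CRM8 and E1C5Δ/Δ embryos CRM5, further candidate regulatory regions of Grem1 deleted on the same chromosome. All mice were kept on a Swiss Albino background.

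Cartilage of the limb skeleton forms where mesenchymal cells condense and differentiate into chondrocytes. Sox9 encodes the transcription factor that is required for these steps, and Sox5 and Sox6 encode related factors without an activation domain of their own that act with it. Together the 3 factors are known to bind and activate the genes of the cartilage matrix. Col2a1 encodes the chain of type II collagen, the main fibril of cartilage, Col11a1 encodes a chain of type XI collagen within that fibril, and Col9a1, Col9a2 and Col9a3 encode the chains of type IX collagen on its surface. Acan encodes aggrecan, the large proteoglycan that holds water in mature cartilage. Grem1 restrains BMP signalling, which acts on chondrogenesis in limb buds.

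In mm10, Sox9 (ENSMUSG00000000567) lies at chr11:112782224-112787760 on the plus strand, Sox5 (ENSMUSG00000041540) at chr6:143828425-144781977 on the minus strand and Sox6 (ENSMUSG00000051910) at chr7:115470872-116038796 on the minus strand. Col2a1 (ENSMUSG00000022483) lies at chr15:97975602-98004695 on the minus strand and Col11a1 (ENSMUSG00000027966) at chr3:114030540-114220718 on the plus strand. The type IX collagen genes lie on separate chromosomes, Col9a1 (ENSMUSG00000026147) at chr1:24177610-24252684, Col9a2 (ENSMUSG00000028626) at chr4:121039385-121055322 and Col9a3 (ENSMUSG00000027570) at chr2:180597790-180622189, all on the plus strand. Acan (ENSMUSG00000030607) lies at chr7:79053483-79115099 on the plus strand. Annotated antisense transcripts overlap Sox5 and Sox6, a further transcript lies within an intron of Sox5, and Tcfl5 overlaps Col9a3 on the other strand. Reads were counted with the default settings of Cell Ranger, which for a 3′ kit assign reads to genes on their own strand, so that genes on opposite strands are kept apart.

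The promoter table of RefSeq (GRCm38.p6) held entries for 6 of the 9 genes, Sox5, Sox6, Col9a1, Col9a2, Col11a1 and Acan, of 300 bases each, from 250 bases before to 50 after an annotated start. These windows were searched on both strands for ACAAAG and ACAATG, letters that the HMG box of Sox proteins is known to prefer. The letters occurred at least once in 28.6% of all 32851 windows. They occurred in 6 of 12 windows of these genes, the 1 window of Sox5 and 5 of the 6 windows of Sox6, and in none of the windows of Col9a1, Col9a2, Col11a1 and Acan. Counted by gene, this is 2 of 6 genes (33.3%), against 31.7% of all 27025 genes with an entry. The 250 bases before a start are printed for Sox5, for the start of Sox6 with the most matches, and for Col9a1 and Col11a1, to show a window with a match and a matrix gene window without any. Matches are in capitals, on either strand, and describe letters, not bound sites.
Sox5 (chr6:143947107-143947356, minus strand): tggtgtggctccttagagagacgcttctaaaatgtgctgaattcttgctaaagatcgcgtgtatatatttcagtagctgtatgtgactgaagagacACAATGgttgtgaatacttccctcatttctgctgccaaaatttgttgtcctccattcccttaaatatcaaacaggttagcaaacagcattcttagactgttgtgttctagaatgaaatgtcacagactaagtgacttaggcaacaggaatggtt
Sox6 (chr7:115995087-115995336, minus strand): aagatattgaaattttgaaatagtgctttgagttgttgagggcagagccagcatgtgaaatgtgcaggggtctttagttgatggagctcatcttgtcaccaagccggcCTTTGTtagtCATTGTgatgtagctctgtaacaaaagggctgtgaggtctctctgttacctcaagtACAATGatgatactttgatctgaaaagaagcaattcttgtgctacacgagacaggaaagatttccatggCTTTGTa
Col9a1 (chr1:24177360-24177609, plus strand): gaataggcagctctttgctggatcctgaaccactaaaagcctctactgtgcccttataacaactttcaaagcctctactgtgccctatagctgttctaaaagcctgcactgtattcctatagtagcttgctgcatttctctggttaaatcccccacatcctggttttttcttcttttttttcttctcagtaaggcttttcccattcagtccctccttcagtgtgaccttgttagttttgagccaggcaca
Col11a1 (chr3:114030290-114030539, plus strand): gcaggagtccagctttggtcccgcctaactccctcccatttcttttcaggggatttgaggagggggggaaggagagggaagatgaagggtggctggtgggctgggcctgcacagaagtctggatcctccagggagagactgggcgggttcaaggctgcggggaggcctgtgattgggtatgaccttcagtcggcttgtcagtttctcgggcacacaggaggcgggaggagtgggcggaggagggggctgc
The Sox6 window held 4 matches and the Sox5 window held 1.

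The libraries were uneven. Mesenchymal cells, taken by 6 markers that include Prrx1, Pdgfra and Tbx5, numbered 35685 in all, from 474 in E1C8Δ/Δ replicate 1 and 747 in Wt replicate 3 to 6751 in E1C8Δ/Δ replicate 2, with a median depth of 16118 to 47258 UMIs per cell. Grem1, whose regulatory regions are deleted, was at 28.5 to 42.6 CPM (UMIs of a gene per 1000000 UMIs of all genes in the cells summed) in Wt, 11.6 to 13.9 in E1C8Δ/Δ and 16.7 to 24.97 in E1C5Δ/Δ libraries, with no overlap between Wt and either mutant. All Wt embryos were male, while 2 of the 3 embryos of each mutant were female by Xist and 4 Y-linked genes, so that sex and genotype are partly confounded. Within the mesenchymal cells, the 6 mesenchymal markers summed to 1254 to 1817 CPM. The 6 epithelial markers summed to 6.26 to 6.99 CPM in Wt, 7.32 to 10.6 in E1C8Δ/Δ and 4.16 to 6.04 in E1C5Δ/Δ libraries, and the 6 muscle markers to 4.16 to 7.49, 7.89 to 11.1 and 3.90 to 5.44 CPM. The 7 blood markers summed to 3.21 to 9.74, 1.67 to 3.59 and 2.82 to 10.81 CPM. None of the markers of these 4 lists was at 0 in any genotype. The 6 blood vessel markers summed to 1.82 to 4.37 CPM in Wt, 3.03 to 5.70 in E1C8Δ/Δ and 1.92 to 2.43 in E1C5Δ/Δ libraries. The 7 immunity markers summed to 1.33 to 2.15, 0.999 to 1.44 and 0.602 to 1.07 CPM. The part of other cell types in the results was not tested.

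Mesenchymal cells were divided into 11 positions, each named after the leading gene of a marker list taken from the study's tables, and the core position after the core mesenchyme that expresses Tbx15, Tbx18, Notch1 and Fgf9. No member of the cartilage programme is among the markers, but the markers are other genes of the same cells. In Wt forelimb buds, Sox9 was highest at the core position, at 818, 693 and 762 CPM in replicates 1 to 3, which gives 758 ± 62.8 CPM (SD, n = 3). The Gsc position, whose leading gene is required for the scapula, followed at 452 ± 64.8 CPM, below every core value. The Osr2 and Emx2 positions held 352 ± 19.0 and 351 ± 131 CPM and could not be told apart. The lowest Sox9 levels were those of the Shh, Osr1 and Hoxa13 positions, at 82.2 ± 18.7, 79.4 ± 21.3 and 76.6 ± 5.88 CPM, which overlapped. Core was above Gsc and Gsc above Osr2 in all 3 Wt libraries. In the mutants, core was above Gsc and Gsc above Osr2 in 6 of 6 libraries, while Osr2 was above Emx2 in 0 of 6. Osr2 was also below Emx2 in Wt replicates 1 and 2, and above it only in Wt replicate 3, a small library. A change of this order with genotype was not tested.

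Sox5 and Sox6 were spread differently from Sox9. Sox5 was equally high at the core and Gsc positions, at 112 ± 16.6 and 112 ± 19.4 CPM in Wt, and lowest at the Sostdc1 and Osr1 positions with 24.9 ± 4.33 and 16.7 ± 3.32 CPM. Sox6 reached 36.5 ± 10.4 CPM at the Gsc position, 34.8 ± 18.3 at the Pax1 position and 30.3 ± 10.67 at the core, which overlapped one another. The means of the remaining 8 positions were at most 13.3 CPM, although the Osr2 position of 1 Wt library reached 21.5 CPM, above the lowest core value. The Pax1 position, marked by anterior genes such as Alx4, held a Sox6 level that overlapped that of the core, while its Sox9 level of 168 ± 33.9 CPM lay below each of the Wt core values. At the Emx2 position, Sox6 was at 11.3 ± 3.27 CPM, below each of the Wt core values. These are comparisons of positions within a gene, since UMI levels of different genes were not compared.

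**Figure D1:**
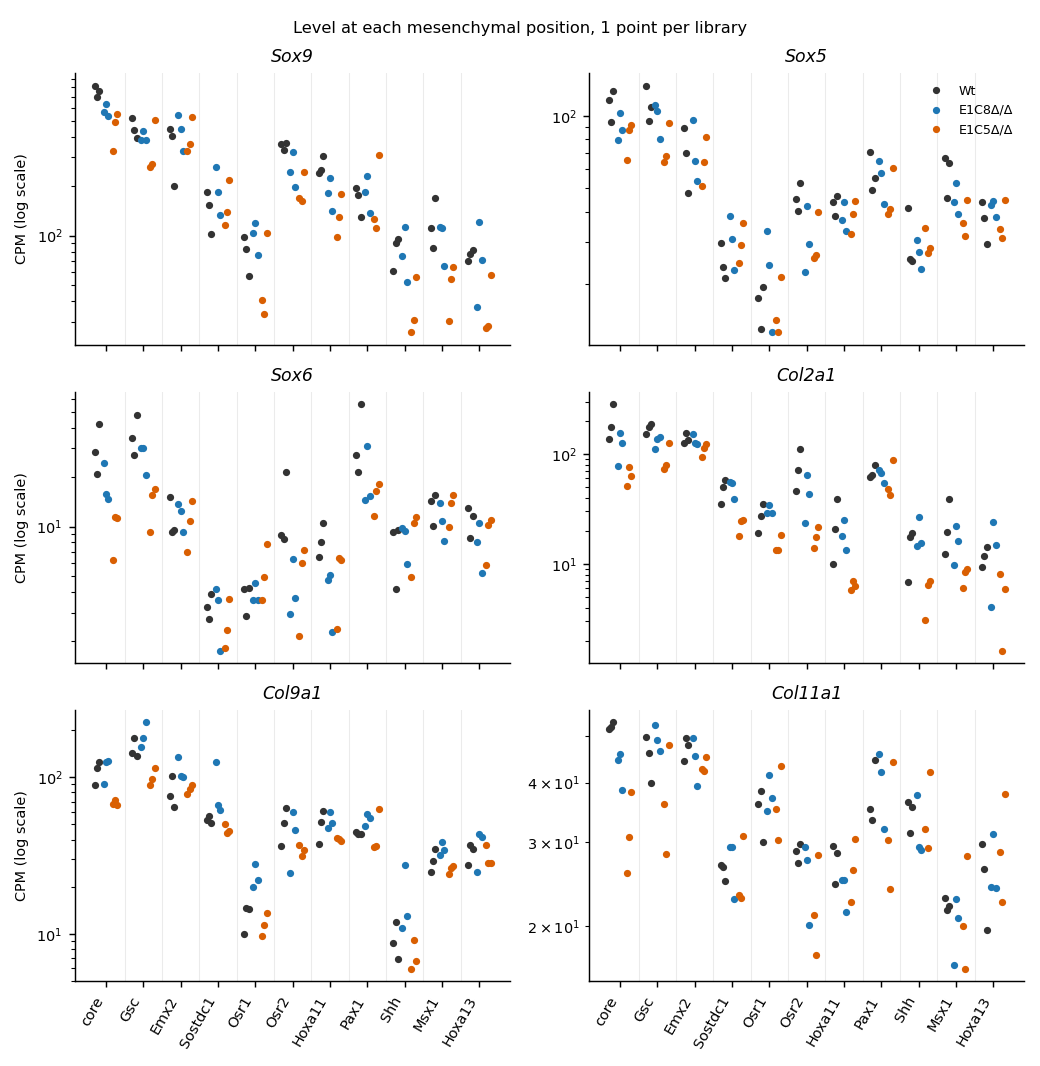
Level of 6 genes at each of 11 mesenchymal positions, in CPM on a logarithmic axis, with 1 point per library and colours for the genotypes. Sox9 is highest at the core in all Wt libraries (693 to 818 CPM), Sox6 at Gsc and Pax1 overlaps Sox6 at the core, and Col9a1 is highest at Gsc (136 to 179 CPM in Wt).

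Col2a1, Col9a1, Col9a3 and Col11a1 had their 3 highest Wt means at the core, Gsc and Emx2 positions, in an order that depended on the gene. At the core Col2a1 had a mean of 199 ± 77.3 CPM in Wt, with values that overlapped those of the Gsc (173 ± 18.8) and Emx2 (138 ± 14.4) positions. All 3 lay above the Osr2 position with 76.3 ± 33.5 CPM, and the Hoxa13 position held 11.8 ± 2.52 CPM. Col9a1 was highest at the Gsc position, at 143, 179 and 136 CPM, above every core value of 89.3, 115 and 124 CPM, and Gsc was above core in 6 of 6 mutant libraries too. Col9a1 was lowest at the Osr1 and Shh positions, at 13.0 ± 2.65 and 9.19 ± 2.51 CPM. The other type IX chains were near the detection limit in most positions. Col9a2 reached 11.8 ± 8.75 CPM at the core, followed by the Gsc position, and its mean was higher at the Osr2 position (3.02 ± 2.55 CPM) than at the Emx2 position (1.62 ± 0.241), which overlapped. Col9a3 reached 12.9 ± 7.95 at the core and 12.3 ± 7.22 at the Gsc position. Col11a1 varied least, from 52.6 ± 0.908 CPM at the core to 22.2 ± 0.626 at the Msx1 position, with core above each of the other 10 positions in Wt but above Emx2 in 1 of 6 mutant libraries. Acan was not measurable. It had 83 UMIs in the 35685 cells, 0 to 24 per library and at most 0.094 CPM, and entered no test.

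With all libraries in 1 fit and the library as a block, the 8 measurable genes were higher at the core, Gsc and Emx2 positions than in the mean of the 8 other positions. The study describes these 3 positions as chondrogenic from these samples, so that the direction is not independent evidence. At the core, log2 differences were 2.27 (SE 0.09) for Sox9, 2.38 (SE 0.10) for Col2a1, 3.24 (SE 0.13) for Col9a2 and 0.51 (SE 0.05) for Col11a1. At the Gsc position, Sox9 was higher by 1.70 (SE 0.09), Sox6 by 1.60 (SE 0.11) and Col9a1 by 2.14 (SE 0.06). At the Emx2 position, Col2a1 was higher by 2.55 (SE 0.11) and Sox6 by 0.57 (SE 0.14), which had the highest adjusted p of all, 0.000217. In the same fit, 30% of all 12879 tested genes were higher at the core, 36% at the Gsc and 29% at the Emx2 position.

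Across 99 sums of 9 libraries and 11 positions, with each library centred, the log2 levels of Sox9 were correlated with those of Col2a1 (r = 0.86), Col9a1 (r = 0.83) and Col9a2 (r = 0.77). Sox9 and Sox6 had an r of 0.33, while Sox5 and Sox6 had an r of 0.76. Sums of a library share its depth and cells, so these values are a description. Among 9212 genes with a mean of at least 5 CPM, those most like Sox9 were Rgma (r = 0.88), Fam181b (r = 0.88), Pkia (r = 0.87), Sorbs2 (r = 0.86) and Pgpep1 (r = 0.86). Those most like Col2a1 were Synpo (r = 0.94), Pgpep1 (r = 0.93), Casd1 (r = 0.92), Metrn (r = 0.92) and Ypel2 (r = 0.91). Fam181b, as an example, was at 97.0 ± 14.8 CPM at the core and 21.7 CPM at the Gsc position in Wt, and Synpo at 65.5 ± 4.60 CPM at the Gsc and 58.0 ± 5.66 at the core position. Of the genes most like Sox9, all 5 were highest at the core in Wt, and of those most like Col2a1, Synpo, Casd1, Metrn and Ypel2 were highest at the Gsc position. These genes were picked from the same sums, so that where they peak is not an independent result.

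Some genes of the programme were also found outside the mesenchyme. Epithelial cells held Col2a1 at a median of 157 CPM (134 to 197 over 6 libraries), Sox9 at 79.2 CPM (52.6 to 108) and Sox6 at 16.01 CPM (11.8 to 21.9), while Col9a1 was at 3.43 CPM there, near its level of 2.98 CPM in blood cells. Muscle cells, whose precursors migrate into the bud, held Col2a1 at 30.5 CPM (21.9 to 37.9 over 9 libraries) and Col11a1 at 24.9 CPM (18.6 to 34.3). Blood cells, which should lack the programme, had medians of 8.84 CPM of Sox9, 2.95 CPM of Col2a1 and 0.372 CPM of Sox6. At 10000 UMIs per cell, 59.0% of epithelial, 24.2% of muscle and 2.27% of blood cells had a UMI of Col2a1, and 43.8%, 16.8% and 7% had a UMI of Sox9. Without thinning, 6.58% of blood cells had a UMI of Col2a1 and 19.1% of Sox9, at a median depth of 32761 UMIs, against 27817 in mesenchymal cells.

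The comparison of genotypes asked whether the cartilage programme differs in limb buds with reduced Grem1. Over all mesenchymal cells, Sox9 was at 284, 256 and 261 CPM in Wt replicates 1 to 3, 232, 272 and 185 CPM in E1C8Δ/Δ and 139, 154 and 228 CPM in E1C5Δ/Δ libraries. The E1C5Δ/Δ libraries all lay below Wt, and E1C8Δ/Δ overlapped Wt. Sox5 was at 63.5, 49.4 and 56.0 CPM in Wt, 52.6, 56.7 and 42.0 in E1C8Δ/Δ and 37.0, 40.7 and 51.2 in E1C5Δ/Δ libraries, and the groups overlapped. Sox6 was at 14.6, 11.5 and 20.7 CPM in Wt, 11.2, 12.7 and 7.93 in E1C8Δ/Δ and 5.59, 9.95 and 11.1 in E1C5Δ/Δ libraries, all of the last below Wt. In the joint comparison, the mean of both mutants against Wt, log2 fold changes were -0.41 for Sox9 (SE 0.13, edgeR adjusted p = 0.120), -0.26 for Sox5 (SE 0.10, adjusted p = 0.191) and -0.66 for Sox6 (SE 0.21, adjusted p = 0.123), so that no member of the Sox trio passed the threshold of 0.05 in edgeR. For E1C5Δ/Δ alone, Sox9 had a log2 fold change of -0.58 (SE 0.15, adjusted p = 0.104). In DESeq2, Sox9 and Sox6 passed in the joint comparison (adjusted p = 0.0406 and 0.0274) and for E1C5Δ/Δ (adjusted p = 0.00995 and 0.0414). Of all 16136 tested genes, 607 fell in the joint comparison in DESeq2 against 248 in edgeR, and 425 against 189 for E1C5Δ/Δ. In edgeR Sox9 passed without E1C5Δ/Δ replicate 3 (joint -0.51, adjusted p = 0.0274, and E1C5Δ/Δ -0.76, adjusted p = 0.0291). There, 506 of 16422 tested genes fell in the joint comparison and 136 for E1C5Δ/Δ.

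**Figure D2:**
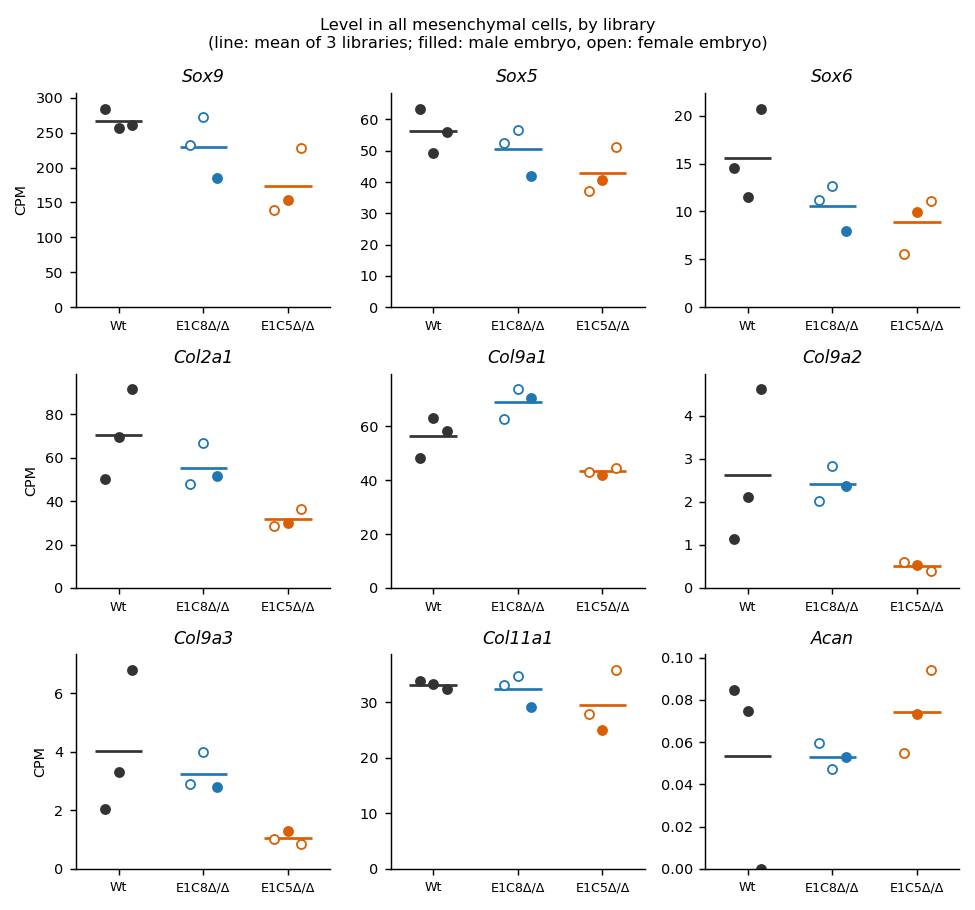
Level of each of the 9 genes over all mesenchymal cells, in CPM on axes from 0, with 1 point per library, filled for male and open for female embryos, and a line at the mean of 3 libraries. The E1C5Δ/Δ libraries lie below all Wt libraries for Sox9, Sox6, Col2a1, Col9a1, Col9a2 and Col9a3, and Wt replicate 3 is the highest Wt library for Col2a1 (91.5 CPM).

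In edgeR, Col2a1 was the only one of the 8 tested genes that fell in the joint comparison, and 1.54% of all 16136 tested genes fell in this comparison. It was at 50.1, 69.6 and 91.5 CPM in Wt, 48.1, 66.6 and 51.6 in E1C8Δ/Δ and 28.4, 29.9 and 36.6 in E1C5Δ/Δ libraries. E1C5Δ/Δ thus lay below every Wt library and E1C8Δ/Δ within or just below the Wt range. The log2 fold change was -0.73 in the joint comparison (SE 0.16, adjusted p = 0.0437) and -1.10 for E1C5Δ/Δ (SE 0.19, adjusted p = 0.0195). Wt replicate 3 was the highest Wt library. Without it the values were -0.52 (adjusted p = 0.130) and -0.89 (adjusted p = 0.0604), and with both small libraries left out they were -0.46 (adjusted p = 0.206) and -0.89 (adjusted p = 0.0758). With embryo sex as a covariate they were -0.77 (adjusted p = 0.272) and -1.14 (adjusted p = 0.122), so that the size of the change stayed and the call was lost. In this fit, 6 of all 16136 tested genes were called in the joint comparison and 10 for E1C5Δ/Δ, in either direction. Leaving out Wt replicate 2 (-0.71, adjusted p = 0.116), any E1C8Δ/Δ replicate (-0.80 to -0.67, adjusted p from 0.0506 to 0.0912) or E1C5Δ/Δ replicate 1 or 2 (-0.70 and -0.72, adjusted p = 0.0972 and 0.0771) also ended the joint call, and leaving out E1C5Δ/Δ replicate 1 or 2 ended that for E1C5Δ/Δ. With the replicate number as a block, the joint call of Col2a1 was lost and that for E1C5Δ/Δ was kept.

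The type IX collagen genes differed between the mutants. Col9a1 was at 48.4, 63.2 and 58.2 CPM in Wt, 62.9, 73.7 and 70.4 in E1C8Δ/Δ and 43.2, 41.8 and 44.7 in E1C5Δ/Δ libraries, so that E1C8Δ/Δ reached into the Wt range only with its lowest library, E1C5Δ/Δ lay below all Wt libraries, and the mutants did not overlap each other. Col9a2 was at 1.14, 2.11 and 4.61 CPM in Wt, 2.02, 2.84 and 2.36 in E1C8Δ/Δ and 0.608, 0.528 and 0.384 in E1C5Δ/Δ libraries, on 34 to 535 UMIs per library. Col9a3 was at 2.03, 3.30 and 6.80 CPM in Wt, 2.91, 4.00 and 2.81 in E1C8Δ/Δ and 1.03, 1.31 and 0.862 in E1C5Δ/Δ libraries. Both were lower in each E1C5Δ/Δ library than in any other library. In E1C5Δ/Δ against Wt, Col9a2 fell by 2.27 (SE 0.43, adjusted p = 0.0270) and Col9a3 by 1.84 (SE 0.37, adjusted p = 0.0370) on the log2 scale, which with Col2a1 makes 3 of 8 genes, against 1.17% of all tested genes that fell. Wt replicate 3 was again the highest Wt library, and without it Col9a2 had a log2 fold change of -1.66 (adjusted p = 0.0547) and Col9a3 of -1.31 (adjusted p = 0.0769). With embryo sex as a covariate, Col9a2 was at -2.22 (adjusted p = 0.197) and Col9a3 at -1.76 (adjusted p = 0.224), and without the small libraries they were at -1.66 (adjusted p = 0.0823) and -1.31 (adjusted p = 0.115). The calls also rested on each E1C5Δ/Δ library, since without replicate 1, 2 or 3 the adjusted p was 0.0784, 0.0766 and 0.0788 for Col9a2 and 0.131, 0.0676 and 0.0895 for Col9a3. Col9a3 was lost as well without Wt replicate 2 (adjusted p = 0.0625) or any E1C8Δ/Δ replicate (adjusted p 0.0548 to 0.0581). With the replicate number as a block, the E1C5Δ/Δ calls of both Col9a2 and Col9a3 were lost. Col11a1 was at 32.4 to 33.7 CPM in Wt, 29.1 to 34.8 in E1C8Δ/Δ and 25.03 to 35.7 in E1C5Δ/Δ libraries, with a log2 fold change of -0.09 in the joint comparison (SE 0.09, adjusted p = 0.624). In the joint comparison Col9a2 was at -1.16 (adjusted p = 0.106) and Col9a3 at -1.06 (adjusted p = 0.0974) in edgeR. Both passed in DESeq2 (adjusted p = 0.00983 and 0.00754), without a filter on low counts (0.0465 and 0.0370) and without Wt replicate 1 (0.0333 and 0.0338). The tested genes that fell were 607 of 16136, 326 of 24231 and 111 of 16402 in these fits.

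In E1C8Δ/Δ alone, no gene of the programme passed the threshold in edgeR or in DESeq2, while 5.77% of all tested genes fell in edgeR. An unadjusted p under 0.05 was found in edgeR for 2 of the 8 genes, and for 4202 of all 16136 tested genes. The log2 fold change was -0.36 for Col2a1 (SE 0.19, adjusted p = 0.255), -0.57 for Sox6 (SE 0.25, adjusted p = 0.174) and 0.26 for Col9a1 (SE 0.12, adjusted p = 0.191). Set directly against E1C5Δ/Δ, E1C8Δ/Δ was higher in 4 of 8 genes, Col2a1 (0.73, SE 0.19, adjusted p = 0.0350), Col9a1 (0.59, SE 0.12, adjusted p = 0.0142), Col9a2 (2.20, SE 0.43, adjusted p = 0.0132) and Col9a3 (1.55, SE 0.38, adjusted p = 0.0269), against 4.59% of all tested genes. All 3 E1C8Δ/Δ libraries lay above all 3 E1C5Δ/Δ libraries for each of these 4 genes, which were picked by the same comparison, so that this is no further support. The difference was 0.33 for Sox9 (SE 0.15, adjusted p = 0.192, but 0.51 with an adjusted p of 0.0472 without E1C5Δ/Δ replicate 3) and 0.17 for Sox6 (SE 0.25, adjusted p = 0.707). The 4 calls held with embryo sex as a covariate and without the small libraries, while that of Col9a3 was lost with the replicate number as a block. The count of 4 fell to 2, 0 and 1 without E1C8Δ/Δ replicate 1, 2 and 3, to 2 without E1C5Δ/Δ replicate 1 and to 3 without E1C5Δ/Δ replicate 2. Without E1C5Δ/Δ replicate 3 it was also 3, as Col2a1 (adjusted p = 0.0591) and Col9a3 (adjusted p = 0.0845) were lost and Sox9 passed.

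Within positions, the joint comparison gave 9 calls, of which 6 were at the core. The mean of both mutants was lower there in 6 of the 8 genes, Sox9, Sox6, Col2a1, Col9a2, Col9a3 and Col11a1, where 1.73% of all tested genes were lower. In E1C8Δ/Δ alone no member passed at the core. Sox9 at the core was at 818, 693 and 762 CPM in Wt, 565, 632 and 534 in E1C8Δ/Δ and 327, 490.4 and 550.5 in E1C5Δ/Δ libraries, with every mutant library below every Wt library. Its log2 fold change was -0.55 (SE 0.12, adjusted p = 0.0332). Sox6 at the core was at 28.4, 20.8 and 41.9 CPM in Wt, 24.4, 15.9 and 14.7 in E1C8Δ/Δ and 6.28, 11.4 and 11.2 in E1C5Δ/Δ libraries, with a log2 fold change of -1.19 (SE 0.20, adjusted p = 0.00890). The first E1C8Δ/Δ library, with 37 core cells, lay within the Wt range. Sox5 had a log2 fold change of -0.35 at the core (SE 0.12, adjusted p = 0.135).

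Of the matrix genes at the core, Col2a1 was at 136, 175 and 286 CPM in Wt, 78.2, 155 and 127 in E1C8Δ/Δ and 51.1, 75.5 and 62.9 in E1C5Δ/Δ libraries, with a log2 fold change of -1.13 (SE 0.22, adjusted p = 0.0179). Col11a1 was at 51.7, 52.4 and 53.5 CPM in Wt, 44.6, 46.0 and 38.6 in E1C8Δ/Δ and 25.8, 30.8 and 38.3 in E1C5Δ/Δ libraries, with a log2 fold change of -0.49 (SE 0.10, adjusted p = 0.0245). Every mutant library was below every Wt library for Col11a1, and E1C5Δ/Δ was below Wt for Col2a1. Col9a2 and Col9a3 fell by 1.63 (SE 0.39, adjusted p = 0.0443) and 1.496 (SE 0.34, adjusted p = 0.0345) on the log2 scale. Both were highest in Wt replicate 3, at 21.7 CPM each in 103 core cells, with 5.05 and 8.58 CPM of Col9a2 in the other Wt libraries. Col9a2 was at 5.88, 9.99 and 7.90 CPM in E1C8Δ/Δ libraries (log2 fold change -0.31, adjusted p = 0.735), within the Wt range, and at 1.72, 2.05 and 0.765 CPM in E1C5Δ/Δ libraries, below it. Col9a3 was likewise within the Wt range in E1C8Δ/Δ (-0.58, adjusted p = 0.421) and below it in E1C5Δ/Δ libraries. Col9a1 was at 89.3 to 124 CPM in Wt, 89.9 to 126 in E1C8Δ/Δ and 66.1 to 72.1 in E1C5Δ/Δ libraries, with the last below Wt, and did not pass in the joint comparison.

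With embryo sex as a covariate, all 6 joint calls at the core were lost, with adjusted p from 0.157 for Sox6 (-1.15) to 0.356 for Col9a3 (-1.25), and without the small libraries all but that of Sox6 were lost (adjusted p 0.0517 to 0.129). The joint calls at the core also rested on single libraries to different degrees. When each of 9 libraries was left out in turn, Sox6 was lost in 0 fits, Col2a1 in 1, Col11a1 in 4, Sox9 and Col9a3 in 6 and Col9a2 in 8. Without Wt replicate 3, Col2a1 was at -0.82 (adjusted p = 0.0823), Col9a2 at -1.03 (adjusted p = 0.128) and Col9a3 at -1.06 (adjusted p = 0.110). Sox9 was lost without any Wt or E1C8Δ/Δ replicate (adjusted p 0.0502 to 0.111) and Col9a2 without any library but Wt replicate 1 (adjusted p 0.0540 to 0.128). Col9a3 was lost without Wt replicate 2 or 3, E1C8Δ/Δ replicate 2 or 3, or E1C5Δ/Δ replicate 1 or 3, and Col11a1 without any Wt replicate or E1C8Δ/Δ replicate 3 (adjusted p up to 0.107).

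Outside the core, the calls of the joint comparison were Sox9 and Col2a1 at the Osr2 position, where 2.95% of all tested genes fell, and Sox9 at the Hoxa11 position, where 1.05% fell. Sox9 at the Osr2 position was at 331 to 366 CPM in Wt, 199 to 323 in E1C8Δ/Δ and 162 to 244 in E1C5Δ/Δ libraries (log2 fold change -0.65, SE 0.13, adjusted p = 0.0129). Sox9 at the Hoxa11 position, named after a homeobox gene of the zeugopod, was at 241 to 303 CPM in Wt, 141 to 224 in E1C8Δ/Δ and 97.6 to 179 in E1C5Δ/Δ libraries (log2 fold change -0.76, SE 0.15, adjusted p = 0.0250). No mutant library reached the lowest Wt library in either position. Leaving out 1 library at a time ended the Sox9 call at the Hoxa11 position in 4 of 9 fits (adjusted p up to 0.103). The calls of Sox9 and Col2a1 at the Osr2 position were lost in 0 of these fits, but each was lost in 1 of the 20 alternatives run. In all, 9 of 82 joint tests of these genes over 11 positions passed, all lower, against 0.748% of all tests of all genes, and 60 of the 82 log2 fold changes were negative. Tests at different positions share their libraries, so that the signs are not independent of one another. The changes of Sox9 ran from -0.78 to 0.24 across positions and those of Col2a1 from -1.34 to -0.11, with 11 of 11 negative. The count of 9 was 3 without Wt replicate 3, 4 without Wt replicate 2 or E1C8Δ/Δ replicate 3, 2 without both small libraries and 1 with embryo sex as a covariate.

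E1C5Δ/Δ alone was lower in 16 of 82 tests, against 0.581% of all tests, in 5 positions. At the core, where 1.7% of all tested genes fell, it was lower in the same 6 genes, with Sox6 at -1.56 (SE 0.25, adjusted p = 0.00489) and Col2a1 at -1.60 (SE 0.26, adjusted p = 0.00644). Leaving out each of 9 libraries in turn ended the core call of Sox9 in 4 fits (adjusted p up to 0.0769). It ended that of Col9a3 in 2, those of Col9a2 and Col11a1 in 1 each and those of Sox6 and Col2a1 in 0. Each of the 6 calls was lost in at least 1 of the 20 alternatives run. At the Gsc position, where 0.439% of all tested genes fell, Sox6 (-1.28, SE 0.22), Col2a1 (-0.84, SE 0.16), Col9a2 (-1.53, SE 0.32) and Col9a3 (-1.84, SE 0.32) fell and Sox9 did not pass. With each of 9 libraries left out in turn, Sox6 was lost in 0 fits, Col9a3 in 1, Col2a1 in 5 and Col9a2 in 7 (adjusted p up to 0.240). At the Osr2 position, where 2.16% fell, Col2a1 was at 45.7 to 112 CPM in Wt and 13.8 to 21.4 CPM in E1C5Δ/Δ libraries (-2.05, SE 0.30), and Sox9 (-0.83, SE 0.15) and Col9a2 fell too, the last listed at 0 in 1 library. Sox9 (-0.96, SE 0.18) and Col2a1 (-1.74, SE 0.36) fell at the Hoxa11 position against 0.628% of all tested genes, and Col2a1 (-1.05, SE 0.18) at the Sostdc1 position against 0.569%. Among the 9 fits without 1 library, the Hoxa11 call of Sox9 was lost in 4 and that of Col2a1 in 6. The Sostdc1 call of Col2a1 was lost in 1. At the other 6 positions no member passed. The count of 16 was 6 without E1C5Δ/Δ replicate 1, 7 without the small libraries and 2 with embryo sex as a covariate.

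E1C8Δ/Δ had 1 call in 82 tests against Wt, and it was in the other direction. Col9a1 at the Osr1 position was at 9.92, 14.6 and 14.4 CPM in Wt and 20.0, 28.1 and 21.9 CPM in E1C8Δ/Δ libraries, with no overlap (log2 fold change 0.86, SE 0.19, adjusted p = 0.0275). Summed over positions, 1.88% of all tests of all genes were higher in E1C8Δ/Δ, and 1 of 82 tests is no more than this share. The call was lost without Wt replicate 1 (0.66, adjusted p = 0.0949) or E1C8Δ/Δ replicate 2 (0.69, adjusted p = 0.187) or 3 (0.89, adjusted p = 0.0662), with embryo sex as a covariate (0.81, adjusted p = 0.156), without the small libraries (0.96, adjusted p = 0.0530) and with doublets kept (0.87, adjusted p = 0.0536), and the count rose to 3 without E1C5Δ/Δ replicate 1 or 3. Against E1C5Δ/Δ, E1C8Δ/Δ was higher in 19 of 82 tests over 9 positions and lower in none, against 2.17% of all tests that were higher. These were tests of Col2a1, Col9a1, Col9a2 and Col9a3, and Sox9, which was higher in E1C8Δ/Δ at 11 of 11 positions by 0.01 to 1.07, passed at none (lowest adjusted p = 0.0504). The count of 19 was 2 without E1C8Δ/Δ replicate 2, 9 without E1C5Δ/Δ replicate 1 and 12 without E1C5Δ/Δ replicate 2.

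**Figure D3:**
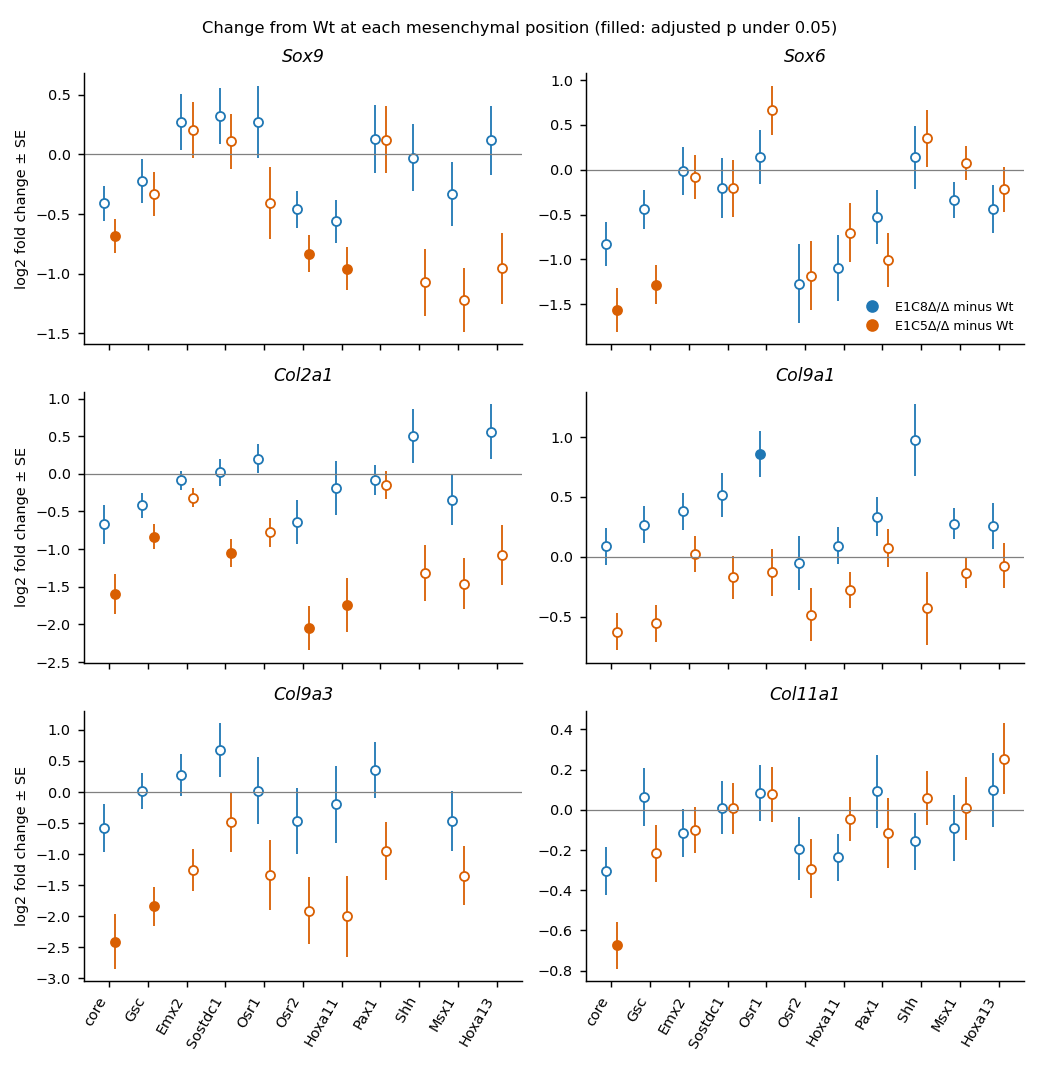
Log2 fold change from Wt with its SE at each of 11 positions, for E1C8Δ/Δ and E1C5Δ/Δ and 6 genes, with filled points at an adjusted p under 0.05. Col2a1 is negative at every position in E1C5Δ/Δ (-2.05 to -0.15), the calls of Sox6 are at the core and Gsc positions, and the only filled point of E1C8Δ/Δ is Col9a1 at the Osr1 position (0.86). Col9a3 was tested at 9 positions.

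To compare the core with the rest of the same library, the log2 level at the core was set against the mean of 8 other positions. Col11a1 was higher at the core by 0.77 to 0.91 in Wt, 0.60 to 0.61 in E1C8Δ/Δ and -0.01 to 0.42 in E1C5Δ/Δ libraries, and Col9a1 by 1.79 to 1.97, 1.47 to 1.79 and 1.30 to 1.52. For both genes, 6 of 6 mutant libraries lay below all Wt libraries. For Col9a1 the gap was narrow, with E1C8Δ/Δ replicate 3 at 1.789 and Wt replicate 1 at 1.792. Its level at the core itself was not lower in E1C8Δ/Δ than in Wt (log2 fold change 0.09). Across the 11 positions this change ran from -0.05 to 0.98, with 1 negative. The differences between mutants and Wt were -0.47 for Col11a1 (exact permutation of the library labels, two-sided, 84 splits, p = 0.0238) and -0.37 for Col9a1 (exact p = 0.0119, the smallest that 6 against 3 libraries can give), and over the 6 genes compared the adjusted p was 0.0714 for each, above the threshold. Sox6 was higher at the core by 1.63 to 1.84 in Wt, 0.98 to 1.90 in E1C8Δ/Δ and 0.31 to 0.58 in E1C5Δ/Δ libraries, with E1C5Δ/Δ below all others (difference of all mutants -0.72, exact p = 0.143, adjusted p = 0.171). For Sox9 the difference was -0.16 (exact p = 0.417) and for Col2a1 -0.48 (exact p = 0.0714, adjusted p = 0.143). With the small libraries left out, the exact p was 0.0952 for Col9a1 and Col11a1. That for Col11a1 was 0.0714 without any Wt replicate and without E1C5Δ/Δ replicate 2 or 3.

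**Figure D4:**
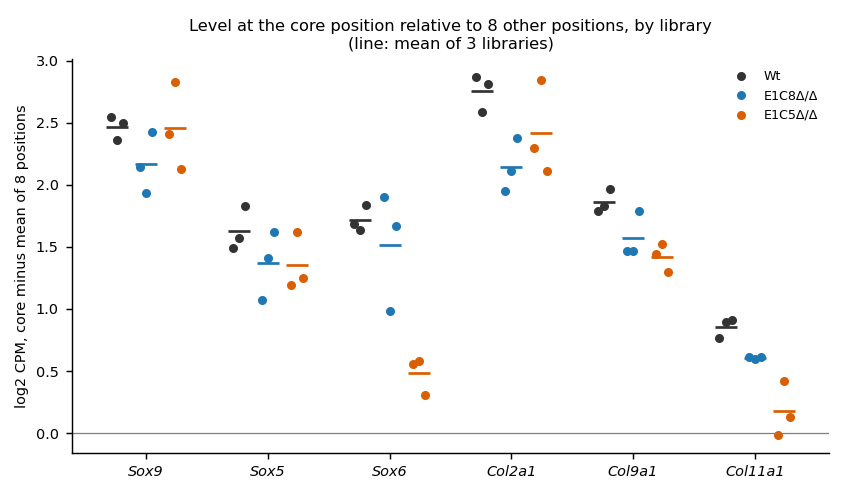
Log2 CPM at the core position minus the mean log2 CPM of 8 positions outside the core, Gsc and Emx2 positions, with 1 point per library and a line at the mean of 3 libraries. Wt lies above both mutants for Col11a1, and Sox6 is lower in E1C5Δ/Δ (0.31 to 0.58) than in all other libraries (0.98 to 1.90).

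The share of cells at the core position was 10.5% to 13.8% of mesenchymal cells in Wt, 7.81% to 10.4% in E1C8Δ/Δ and 5.84% to 8.93% in E1C5Δ/Δ libraries. Fewer cells of a kind and less RNA per cell both lower a sum over all cells, so levels were also weighted to the mean Wt share of each position. Positions were assigned by scores centred within each library, so the cells of a position may differ in kind between genotypes. The weighting does not correct for this, so that fewer cells and less RNA per cell were not tested apart. The weighted difference between mutants and Wt was -0.43 on the log2 scale for Sox9 (exact permutation p = 0.107), against -0.45 without weights, and -0.77 for Col2a1 (exact p = 0.0595), against -0.72. For each mutant, the weighted difference was -0.23 and -0.62 for Sox9 and -0.39 and -1.14 for Col2a1 in E1C8Δ/Δ and E1C5Δ/Δ, where 3 against 3 libraries can give no p below 0.1. Without Wt replicate 3, the weighted difference of Col2a1 was -0.54 (exact p = 0.179).

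Cells were then compared at a common depth of 10000 UMIs. At least 1 UMI of Sox9 was found in 64.3% ± 1.22 of Wt, 61.7% ± 5.38 of E1C8Δ/Δ and 55.0% ± 6.82 of E1C5Δ/Δ mesenchymal cells (SD, n = 3 libraries each), a difference of -5.95 percentage points for the 6 mutant libraries (exact permutation p = 0.202). Without thinning, the shares were 81.5%, 74.3% and 74.4%. Among cells with Sox9, those with a UMI of Col2a1 made up 48.3% ± 9.85 in Wt, 43.0% ± 5.08 in E1C8Δ/Δ and 31.5% ± 2.40 in E1C5Δ/Δ, a difference of -11.1 points (exact p = 0.0833), and all E1C5Δ/Δ libraries (29.4% to 34.2%) lay below all Wt libraries (38.3% to 58.0%). The same share for Col9a1 was 44.4% ± 4.68, 50.2% ± 1.39 and 39.8% ± 0.733. None of the 17 measures compared passed after adjustment (lowest adjusted p = 0.331). Without thinning, 66.1% of Wt cells with Sox9 had Col2a1, and the difference was -12.9 points (exact p = 0.0476, not adjusted). Depth was then not matched between genotypes. The median UMIs per mesenchymal cell were 29538 to 47258 in Wt, 16118 to 26950 in E1C8Δ/Δ and 30567 to 43872 in E1C5Δ/Δ libraries. Without Wt replicate 3 the difference was -6.25 points at 10000 UMIs (exact p = 0.357).

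Cells with more Sox9 more often held its partners and targets. In Wt, the share of cells with a UMI of Col2a1 rose from 15.2% ± 4.68 in cells with no Sox9 UMI to 57.0% ± 11.8 in cells with 4 to 7 and 75.3% ± 6.52 in cells with 8 or more. That of Sox5 rose from 24.7% ± 3.60 to 60.2% ± 5.71 and that of Col11a1 from 20.9% ± 0.735 to 39.8% ± 2.27. Sox6 was at 8.197% ± 1.795 with no Sox9 UMI, 6.70% ± 0.737 with 1 and 25.8% ± 7.96 with 8 or more. Of blood cells at the same depth, 2.27% had a UMI of Col2a1. Cells with 8 or more Sox9 UMIs made up 12.3% ± 1.24 of Wt, 9.34% ± 2.21 of E1C8Δ/Δ and 5.33% ± 3.26 of E1C5Δ/Δ cells (exact p = 0.0595 for the 6 mutant libraries).

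Within classes of cells by their number of Sox9 UMIs, the difference between the mutants was not tested and the values are given side by side. The class of 8 or more has no upper limit, so that the genotypes are not matched for Sox9 within it. In this class, Col2a1 was found in 73.5% ± 5.91 of E1C8Δ/Δ and 56.3% ± 3.63 of E1C5Δ/Δ cells, against 75.3% ± 6.52 in Wt, and Sox6 in 20.8% ± 3.30 and 9.31% ± 2.69, against 25.8% ± 7.96. Every E1C5Δ/Δ library lay below every Wt library for both, with an exact p of 0.1, the smallest that 3 against 3 libraries can give. In cells with 4 to 7 Sox9 UMIs the groups overlapped, with Col2a1 in 57.0% ± 11.8 of Wt, 55.1% ± 7.89 of E1C8Δ/Δ and 46.0% ± 1.81 of E1C5Δ/Δ cells (exact p = 0.3 for E1C5Δ/Δ) and Sox6 in 15.1% ± 3.34, 11.5% ± 1.52 and 11.01% ± 3.04 (exact p = 0.2). For Col2a1, E1C5Δ/Δ also overlapped Wt with 1 and with 2 to 3 Sox9 UMIs, but not in cells without a Sox9 UMI, where Col2a1 was found in 7.36% to 9.60% of E1C5Δ/Δ and 10.1% to 19.2% of Wt cells (exact p = 0.1). Sox5 was found in 61.2% ± 2.09 and 53.7% ± 2.60 of cells with 8 or more, against 60.2% ± 5.71, and Col11a1 in 39.7% ± 0.382 and 35.3% ± 2.67, against 39.8% ± 2.27, both with an exact p of 0.2 for E1C5Δ/Δ. Col9a1 was found in 74.9% ± 4.81 of E1C8Δ/Δ and 62.8% ± 5.25 of E1C5Δ/Δ cells, against 61.8% ± 4.22 in Wt (exact p = 0.1 for E1C8Δ/Δ). For both mutants together, differences in this class were -10.4 points for Col2a1 (exact p = 0.179) and -10.72 points for Sox6 (exact p = 0.0714).

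**Figure D5:**
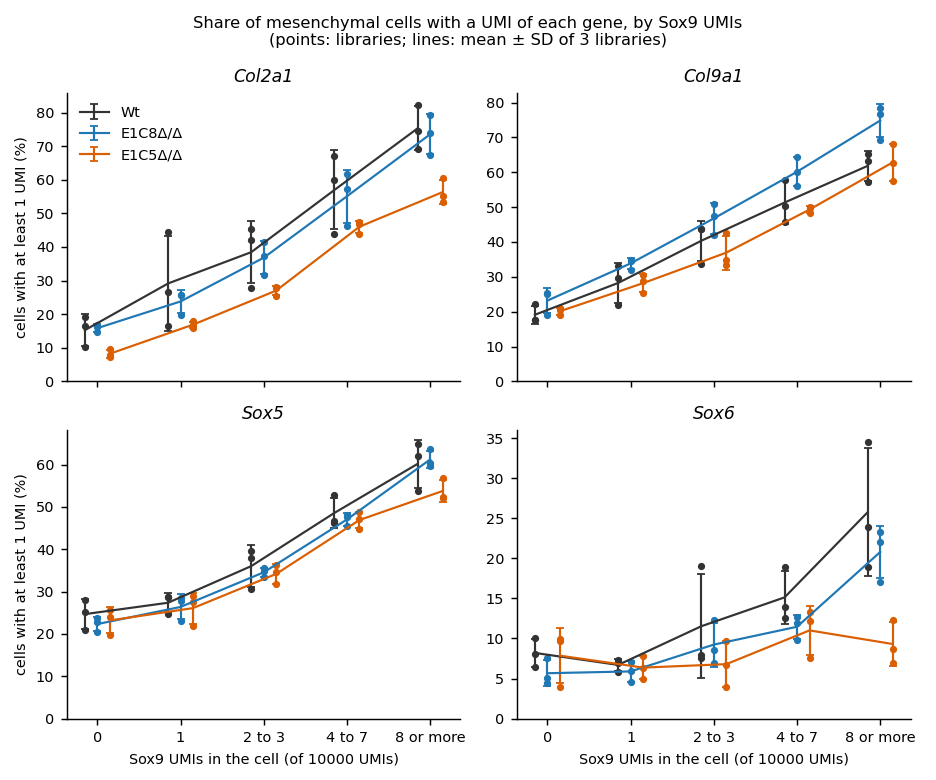
Share of mesenchymal cells with at least 1 UMI of Col2a1, Col9a1, Sox5 or Sox6, in percent, by the number of Sox9 UMIs in the cell at 10000 UMIs per cell. Points are libraries and lines the mean ± SD of 3 libraries. The Col2a1 share rises with Sox9 in all genotypes. E1C5Δ/Δ libraries lie below Wt at 0 (8.22% against 15.2% on average) and at 8 or more (56.3% against 75.3%) and overlap Wt at 1, 2 to 3 and 4 to 7.

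Genes that act beside the programme were followed by lists, with the median log2 fold change of all tested genes at -0.01. Of 23 tested regulators of chondrogenesis, 3 fell in the joint comparison and 0 rose, with a median of -0.27, against 1.54% of all tested genes that fell. In E1C8Δ/Δ alone 2 fell, against 5.77% of all tested genes, and in E1C5Δ/Δ 6, against 1.17%. Foxc1, a forkhead factor of early skeletal mesenchyme, was at 9.80 to 11.1 CPM in Wt, 6.72 to 8.87 in E1C8Δ/Δ and 3.27 to 3.55 in E1C5Δ/Δ libraries (log2 fold change -1.01, SE 0.10, adjusted p = 0.00119). Its relative Foxc2 fell by 1.57 (SE 0.30, adjusted p = 0.0277) at 0.697 to 1.38 CPM in Wt. Wwp2, a ubiquitin ligase gene whose intron holds a microRNA of cartilage, fell by 0.64 (SE 0.10, adjusted p = 0.0128). The 3 genotypes did not overlap for Foxc1, and the mutants lay below Wt for all 3 genes.

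Of 17 other cartilage matrix genes tested, 2 fell in the joint comparison and 0 rose, with a median of -0.20, against 1.54% of all tested genes that fell. In E1C8Δ/Δ alone none fell and 1 rose, against 3.59% of all tested genes that rose, and in E1C5Δ/Δ 2 fell, against 1.17% of all tested genes. The joint calls were Matn4, which encodes a matrilin, at -2.32 (SE 0.37, adjusted p = 0.0131), and Cnmd, which encodes chondromodulin, at -3.33 (SE 0.62, adjusted p = 0.0261). Both rested on few UMIs, 2 to 132 per library for Matn4 and 3 to 103 for Cnmd, and without Wt replicate 3 the value of Cnmd was -2.01 (adjusted p = 0.0357). Of 13 condensation genes, 1 fell in the joint comparison, again against 1.54%, and 0 rose (median -0.23), with 3 lower in E1C8Δ/Δ, against 5.77% of all tested genes, and 2 in E1C5Δ/Δ, against 1.17%. The joint call was Thbs1, which encodes an adhesive glycoprotein, at -0.93 (SE 0.15, adjusted p = 0.0151). None of 8 other Sox genes passed in either direction in the joint comparison (median -0.13), among them Sox11 at -0.03 (SE 0.13) and Sox4 at -0.18 (SE 0.08). None of 6 tendon genes passed in it (median -0.33), with Scx at -0.61 (SE 0.15, adjusted p = 0.0604) and Egr1 at -0.79 (SE 0.38, adjusted p = 0.291). In E1C5Δ/Δ alone Scx fell (-0.98, SE 0.18, adjusted p = 0.0222), 1 of the 6 tendon genes, against 1.17% of all tested genes. No tendon gene passed in E1C8Δ/Δ alone, and no other Sox gene in either mutant alone. Of 8 genes that read out BMP signalling, 2 rose in the joint comparison and 0 fell (median 0.31), Bambi at 0.39 (SE 0.07, adjusted p = 0.0183) and Id3 at 0.42 (SE 0.09, adjusted p = 0.0491), where 0.626% of all tested genes rose. In E1C8Δ/Δ alone 4 of the 8 rose, against 3.59% of all tested genes, and in E1C5Δ/Δ none did, where 0.335% of all tested genes rose. Id3 was at 217 to 235 CPM in Wt, 328 to 413 in E1C8Δ/Δ and 217 to 259 in E1C5Δ/Δ libraries, with E1C8Δ/Δ above all others. With embryo sex as a covariate none of the 8 named joint calls of the lists was kept (adjusted p 0.0509 to 0.278), at values of similar size. The calls of Foxc1, Wwp2 and Matn4 held without each library in turn. That of Foxc2 was lost without any Wt or E1C8Δ/Δ replicate or E1C5Δ/Δ replicate 2, that of Cnmd without E1C8Δ/Δ replicate 1 or 3 or E1C5Δ/Δ replicate 1, and that of Thbs1 without Wt replicate 1 or 3. That of Bambi was lost without Wt replicate 2 or 3, and that of Id3 without any replicate but E1C5Δ/Δ replicate 3.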

How the data were processed

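Forelimb bud pairs of 9 mouse embryos at E10.75 were dissociated and sequenced with a 10x 3′ single-cell kit. The authors deposited raw UMI counts per gene and cell for each library, made with Cell Ranger 6.0.1 against mm10. Their processing notes also list Seurat 4.3.0.1. Default settings were used, which for a 3′ kit count reads on a gene's own strand. The genes, lists and tests were chosen with earlier results of these data known.

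The study's cell filters were applied: over 2500 genes, under 200000 UMIs, and a mitochondrial share under 10%. Doublets were removed by nearest neighbours of simulated doublets at an assumed rate of 0.8% per 1000 barcodes, which took 1.99% to 22.8% of kept cells. Mesenchymal cells carried at least 3 of 6 markers, and cells with 3 or more markers of another lineage were removed. Positions were assigned by the highest mean marker score, centred within each library, with a minimum of 0.25, from marker lists that the study made on these samples. In 11.5% of mesenchymal cells the next position's score was within 0.1. Up to 28 kept barcodes were shared by a pair of libraries.

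Library sums of UMIs entered edgeR 4.0.16 in R 4.3.3 (TMM, filterByExpr, quasi-likelihood F test, Benjamini-Hochberg adjustment over all tested genes, threshold 0.05). A position entered with at least 20 cells per library. Genes on X and Y were left out of the tests, as in the study. The library was the replicate, with 1 embryo each. Levels are raw CPM of the summed UMIs. Shares of cells and level differences were tested over libraries by two-sided exact permutation with Python 3.11.15, numpy 2.4.6, scipy 1.17.1 and pandas 2.3.3. Shares were taken after drawing 10000 UMIs from each cell, which drops cells below that depth. The fits were tested on simulated counts first. DESeq2 1.42.0 and other alternatives were run as well, and those on small libraries and male embryos were added after seeing the data.

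Named were the 9 genes, the 5 genes most like Sox9 and the 5 most like Col2a1, and from each list up to 3 genes per direction with the smallest adjusted p among those that passed in the joint comparison of both mutants with Wt, or the 2 most abundant where none passed. Same-numbered libraries had deviations that correlated by -0.10 to 0.09, and the labels name no shared litter or day, so that the libraries were not treated as paired.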

Additional observations from a re-analysis of the deposited data

Results flagged for a closer look

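For 4 of the 8 tested genes the effect of the mutation differed between E1C8Δ/Δ and E1C5Δ/Δ by a direct test, against 4.59% of all tested genes that were higher in E1C8Δ/Δ. The count was 0 to 4 when 1 library was left out, with 0 without E1C8Δ/Δ replicate 2. E1C8Δ/Δ minus E1C5Δ/Δ was 0.73 for Col2a1, 0.59 for Col9a1, 2.2 for Col9a2 and 1.55 for Col9a3 on the log2 scale, with edgeR adjusted p = 0.0350, 0.0142, 0.0132 and 0.0269. Higher values in E1C8Δ/Δ were found in 3 of 3 libraries against 3 of 3 for each gene. The genes were picked by this test, so that the separation is no further support. By the same test, E1C8Δ/Δ was higher in 6 of 23 regulators of chondrogenesis and lower in 1. It was higher in 3 of 17 other matrix and 3 of 13 condensation genes, and lower in none. The counts were 2 of 8 other Sox, 1 of 6 tendon and 4 of 8 BMP readout genes, all higher.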

How the results depend on the processing

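Few UMIs were counted for Acan and, within positions, for Col9a2 and Col9a3, and the 2 small libraries held 474 and 747 mesenchymal cells. The 8 genes were higher at the core, Gsc and Emx2 positions under every alternative run. The number of genes changed was less stable, and the cause was not tested. For the joint comparison (the mean of both mutants against Wt) in all mesenchymal cells it was 1, and 5 with DESeq2, 3 without a filter on low counts, 0 with the replicate block, 0 with embryo sex as a covariate, 0 without the small libraries and 0 to 3 when 1 library was left out (3 without Wt replicate 1, 2 without E1C5Δ/Δ replicate 3 and 0 without any other). Of all genes tested in these fits, 349 were called in the main fit and 991 with DESeq2. The number was 483 without a filter, 83 with the replicate block, 6 with sex and 48 without the small libraries. When 1 library was left out, 118 to 833 were called. The fit with male embryos only left 1 library of each mutant, so its counts are not given. Within positions the number of members called was 9, and 28 without a filter, 1 with sex, 2 without the small libraries and 3 to 12 when 1 library was left out. For E1C5Δ/Δ in all mesenchymal cells it was 3, and 5 with DESeq2, 1 with the replicate block, 0 with sex, 0 without the small libraries and 0 to 3 when 1 library was left out (0 without Wt replicate 3 or E1C5Δ/Δ replicate 1 or 2). Of all tested genes, 243 were called in the main fit, 617 with DESeq2, 125 with the block and 10 with sex. The number was 48 without the small libraries and 61 to 262 when 1 library was left out. Within positions the number of members called was 16, and 37 without a filter, 2 with sex, 7 without the small libraries and 6 to 20 when 1 library was left out. For E1C8Δ/Δ within positions it was 1, and 6 with DESeq2, 15 without a filter, 3 with the replicate block, 0 without doublet removal, 3 above 4000 genes per cell, 0 without the small libraries, 3 with a score margin, 2 with the second marker set and 0 to 3 when 1 library was left out. In all mesenchymal cells it stayed at 0. For E1C8Δ/Δ against E1C5Δ/Δ it was 4, and 3 with the replicate block (Col9a3 lost at 1.49, adjusted p = 0.0566) and 0 to 4 when 1 library was left out. Of all tested genes, 1672 were called in the main fit, 780 with the block and 350 to 2225 when 1 library was left out. Within positions the number of members called was 19, and 30 without a filter and 2 to 25 when 1 library was left out. As a hint from the data only, same-numbered libraries did not deviate together (correlations of -0.10 to 0.09). The share of Sox9 cells with Col2a1 differed by -12.9 points without thinning and by -16.1 to -6.25 when 1 library was left out, and the share of cells with Sox9 by -7.21 (exact permutation p = 0.0476) and -7.35 to -4.15. The core against other positions gave -0.51 to -0.38 for Col11a1 and -0.59 to -0.41 for Col2a1 when 1 library was left out. The position-weighted difference ran from -0.51 to -0.32 for Sox9 and from -0.96 to -0.54 for Col2a1, which was -0.78 with mixed cells kept, -0.80 above 4000 genes and -0.74 with a score margin (exact p = 0.0476 each). The sign turned for the values that follow. In the joint comparison, Col9a1 was 0.0051 with sex, 0.011 without the small libraries and -0.148 to 0.0836 when 1 library was left out. Sox11 was -0.129 to 0.0779 when 1 library was left out. With males only, which left 1 library of each mutant, Col9a1 was 0.0043. For E1C8Δ/Δ, Col9a2 was 0.64 without the small libraries and -0.438 to 0.54 when 1 library was left out, and Col9a3 0.32 and -0.62 to 0.245, with the highest of both without Wt replicate 3. Between the mutants, Sox5 was -0.011 and Sox6 -0.39 with males only, where 1 library stood against 1. When 1 library was left out, Sox6 was -0.0479 to 0.334 and Col11a1 -0.0386 to 0.153. Of the other values for single genes, 1919 kept direction and call, 314 lost the call and 24 gained it.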
